A study of Homo sapiens with 60 samples.

Results

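The NRF2 antioxidant and pentose phosphate genes described here are 31 named genes: the transcription factor NFE2L2 (NRF2) and its regulators, its antioxidant and detoxification targets, and enzymes that make NADPH. They were chosen by symbol, on the grounds that A549 cells carry a KEAP1 mutation and a high resting level of the pathway. The choice was not by a measured change, but earlier results of these data were known when it was made. All 31 were found among the 60675 gene identifiers of the count table and all 31 were among the 18228 genes tested. A549 is an established human lung carcinoma line. Its cultures received vehicle (0.1% DMSO in the labels, 2% in the design text) or 1 of 8 herbal extracts for 24 h, and RNA was counted by gene in 60 libraries. Water extracts of 2 multi-herb decoctions, Yijin-tang (3 libraries per dose) and Soshiho-tang (2 per dose), were given at 20, 100 and 500 µg/mL, called low, medium and high below. Ethanol extracts of single herbs at the same doses, with 3 libraries per dose, were Schisandrae Fructus, Zizyphi Semen, Liriopis seu Ophiopogonis Tuber (Liriopis below) and Longan Arillus. The ethanol extract of Polygalae Radix was given at 15.2, 76 and 380 µg/mL and that of Aucklandiae Radix at 14.8, 74 and 370 µg/mL, with 1 library per dose. Vehicle had 3 libraries. All groups share 1 cell line with 1 KEAP1 genotype, and the labels do not tell whether each replicate is a culture of its own. P-values thus reflect only how far these libraries vary, which may be technical variation. The numbering of the library names places extracts in sets by pairs (Yijin-tang with Soshiho-tang, Schisandrae with Liriopis, Longan with Zizyphi, Polygalae with Aucklandiae), and the vehicle in a set of its own; what a set stands for is not given in the sources used here.

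NRF2 is a transcription factor that the adaptor KEAP1 holds in the cytoplasm and hands to a ubiquitin ligase for destruction. When electrophiles or oxidants modify KEAP1, or when KEAP1 is mutated as in A549, NRF2 persists, pairs with a small MAF protein such as MAFG and binds antioxidant response elements near genes for glutathione synthesis, thioredoxin reduction, quinone reduction, drug export and NADPH supply. The pentose phosphate pathway, with malic enzyme and cytosolic isocitrate dehydrogenase, supplies the NADPH that glutathione reductase and thioredoxin reductase use. SQSTM1 (p62), an autophagy receptor, binds KEAP1 and is itself an NRF2 target.

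Library totals ran from 18.003 M to 33.832 M counts (M, 1e6; median 23.897 M), and CBR3 and GSTM3 rest on the fewest counts. The libraries of Longan Arillus low replicate 3 and of Soshiho-tang medium replicate 3 stood apart. Relative to each gene's mean over the 60 libraries, their scaled log2 counts fell with transcript length. The slopes were -0.54 and -0.423 log2 units per doubling, against -0.0741 to 0.127 in the other libraries. All slopes below are relative in this way. The mitochondrial shares of the libraries standing apart were 6.392% and 7.321%, against 8.058% to 15.05%. The tests below use the 52 replicated libraries without them. In a fit with all 54, the common dispersion was 0.0173 instead of 0.00244, 33 of the 159 member calls described below were kept, and the counts from that fit are given beside each result. Gene levels are given as CPM, counts per 1e6 after TMM scaling, which corrects for unequal library composition. Cell type markers, their sums and CDKN2A are instead given in CPM by total count, without TMM scaling. KRT8 and KRT18, keratins of epithelial cells, were abundant in vehicle (3600 and 2810 CPM). KRT19 and CDH1 stood at 27.6 and 34 CPM there, and EPCAM was low (4.56 CPM). CDKN2A, which A549 lacks, reached at most 0.171 CPM in any library. PTPRC and CD3E, which define leukocytes, stayed at or under 0.0849 CPM. In bulk RNA, fewer cells of a type and less RNA per cell cannot be told apart.

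In vehicle, most of the genes stood among the most abundant transcripts of the cell. Per transcript length, 7 of the 31 lay in the top 1% of 14167 protein-coding genes with counts, 16 in the top 5% and 29 in the top 25%. NQO1, a quinone reductase, ranked 36th at 2720 ± 39.9 (CPM divided by transcript length and rescaled as TPM is, SD, n = 3), followed by the peroxide reductase PRDX1 (1540), the pentose phosphate dehydrogenase PGD (1360), the glutathione transferase GSTP1 (1350), TKT (1240), TXN (1060) and TXNRD1 (957). The regulators were lower: NFE2L2 stood at 85.4 ± 3.01, MAFG at 62.5 ± 1.27 and KEAP1 at 47 ± 1.16. The carbonyl reductase CBR3 (9.18) and the glutathione transferase GSTM3 (8.93) were the 2 outside the top 25%. The lengths are medians over annotated transcripts, so ranks of genes with very unequal isoforms are approximate.

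**Figure D1:**
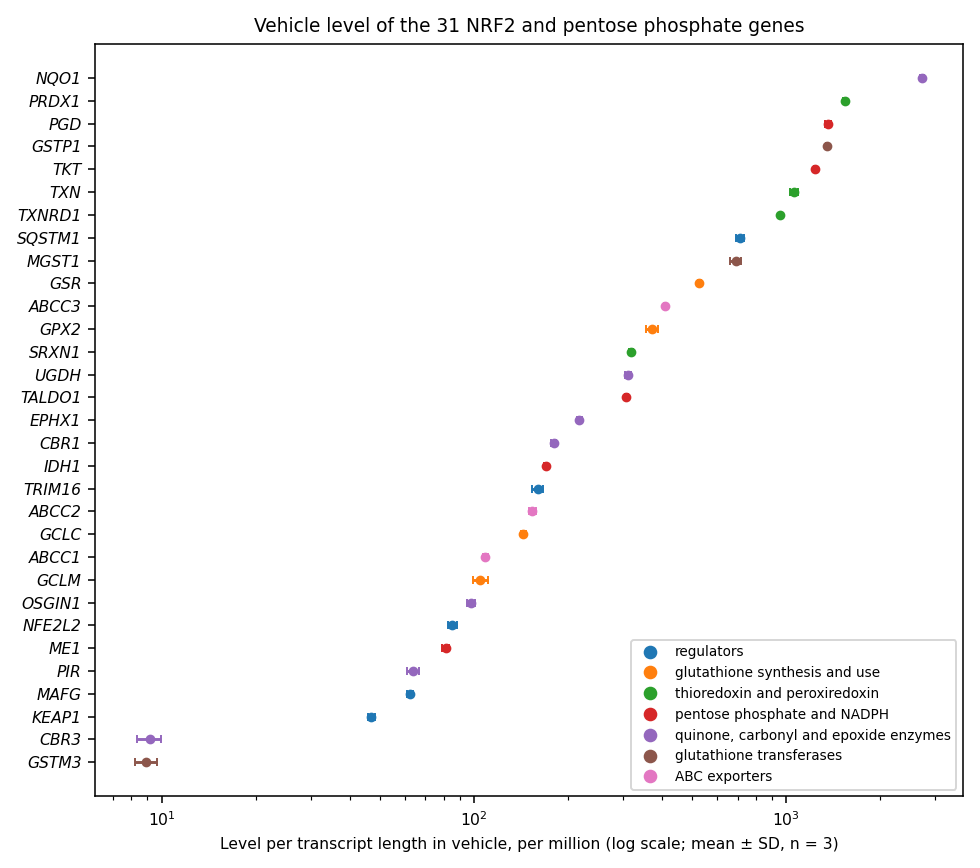
Level per transcript length of each of the 31 genes in the 3 vehicle libraries (x axis, log scale, TPM-like units; points are means, bars SD; colours are roles). NQO1 stands highest at 2720, and CBR3 and GSTM3 stand apart at about 9.18 and 8.93.

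The sequence that NRF2 and small MAF proteins are known to bind contains TGAC, 3 free bases and GC. RefSeq promoters (GRCh38.p14, 250 bases before to 50 after the start) were found for 26 of the 31 genes, in 36 entries, and TGACNNNGC occurred on either strand in 13 of the entries (36.1%) against 13.3% of 35116 promoters. Entries with a match belonged to 12 genes: KEAP1, GCLM, GPX2, TXNRD1, PGD, ME1, IDH1, CBR1, EPHX1, PIR, GSTP1 and MGST1. Several genes with a match were called in the comparisons below, with IDH1, GPX2 and PGD among those not printed. As examples, the 250 bases before the start are printed for TXNRD1 (chr12:104215529-104215778, plus strand), GCLM (chr1:93909431-93909680, minus strand) and ME1 (chr6:83431052-83431301, minus strand). Beside them stand the first of 3 SQSTM1 entries (chr5:179806143-179806392, plus strand), the gene called in the most extracts between high and low dose, and TKT (chr3:53256023-53256272, minus strand), the gene with the largest difference among the 31 in Polygalae Radix, neither with a match in this window. Capitals mark each match on either strand: that of GCLM is read from the other strand, and the second match of TXNRD1 runs past the end of the printed bases. A match is a description of letters and not a measured site.
TXNRD1 promoter: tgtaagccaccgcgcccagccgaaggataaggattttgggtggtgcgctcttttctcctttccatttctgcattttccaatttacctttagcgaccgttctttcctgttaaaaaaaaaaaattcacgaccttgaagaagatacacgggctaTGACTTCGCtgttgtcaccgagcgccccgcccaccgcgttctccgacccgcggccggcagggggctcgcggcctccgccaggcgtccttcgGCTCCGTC
GCLM promoter: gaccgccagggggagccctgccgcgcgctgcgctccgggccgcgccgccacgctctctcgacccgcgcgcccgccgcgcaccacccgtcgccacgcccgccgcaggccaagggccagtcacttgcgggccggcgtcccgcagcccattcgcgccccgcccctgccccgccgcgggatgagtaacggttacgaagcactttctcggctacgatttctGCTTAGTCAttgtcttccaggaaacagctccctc
ME1 promoter: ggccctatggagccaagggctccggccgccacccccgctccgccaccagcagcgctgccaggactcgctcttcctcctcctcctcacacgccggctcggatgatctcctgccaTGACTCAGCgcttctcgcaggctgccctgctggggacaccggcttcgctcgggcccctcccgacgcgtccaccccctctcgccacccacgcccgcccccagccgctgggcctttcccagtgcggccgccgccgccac
SQSTM1 promoter: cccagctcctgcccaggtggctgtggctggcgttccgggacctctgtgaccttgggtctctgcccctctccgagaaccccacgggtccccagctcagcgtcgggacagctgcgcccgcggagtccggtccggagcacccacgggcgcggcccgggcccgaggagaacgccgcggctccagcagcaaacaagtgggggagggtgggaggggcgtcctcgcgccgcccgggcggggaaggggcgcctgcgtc
TKT promoter: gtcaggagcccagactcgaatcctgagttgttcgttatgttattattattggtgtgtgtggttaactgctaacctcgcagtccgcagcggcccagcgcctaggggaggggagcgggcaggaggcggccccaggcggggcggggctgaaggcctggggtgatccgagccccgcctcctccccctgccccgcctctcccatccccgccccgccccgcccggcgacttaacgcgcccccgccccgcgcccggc

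Across the vehicle and the 18 groups of replicated extracts, group means moved little. ABCC3, an exporter of conjugated organic anions, had the widest range, from 415 CPM in vehicle to 631 CPM in Soshiho-tang high (1.52-fold), and CBR3 the next (1.41-fold, at 4.11 to 5.80 CPM). GCLM and IDH1 ranged 1.34-fold and 1.33-fold, each highest in Soshiho-tang high. At the other end, the pentose phosphate enzymes TALDO1 and TKT ranged 1.06-fold and 1.08-fold. These values compare 1 gene between libraries, not genes with each other.

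The first comparison set the high dose against the low dose of the same extract, within 1 library set. A gene was called where edgeR's quasi-likelihood test gave an adjusted p under 0.05 over all genes. Soshiho-tang moved the most members: 6 of 31 rose, where 5.02% of all genes did, and 5 fell, where 4.49% did (9.51% either way). SQSTM1, ABCC3, IDH1, GCLM, ME1 and PGD rose, while the glutathione peroxidase GPX2, the glutathione reductase GSR, TRIM16, PRDX1 and the UDP-glucose dehydrogenase UGDH fell. Schisandrae Fructus raised 3 members (SQSTM1, NQO1 and GCLC; 0.911% of all genes rose) and lowered 0 (0.625%; 1.54% either way). Yijin-tang raised 1, SQSTM1 (0.477%), and lowered 0 (0.51%; 0.987% either way). Zizyphi Semen raised SQSTM1 (0.45%) and lowered GCLC and ME1 (0.702%; 1.15% either way). Liriopis seu Ophiopogonis Tuber called 0 members and 0 of all genes (0.0%), and Longan Arillus 0 members and 0.0878% of all genes (0.011% higher, 0.0768% lower). At an unadjusted p under 0.05, Liriopis had 2 members (PRDX1 and IDH1), where 5.16% of all genes passed, and Longan 10, where 10.7% did. DESeq2 called 3 members in Longan, beside 121 of 37174 genes with a count (0.325%), and 0 genes in Liriopis.

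The fit with all 54 libraries called 2 members in Soshiho-tang (SQSTM1 and ABCC3), 1 in Yijin-tang (SQSTM1), 0 in Schisandrae Fructus, 0 in Liriopis seu Ophiopogonis Tuber, 7 in Longan Arillus, all lower, and 0 in Zizyphi Semen. The Longan Arillus low group then holds the library that stands apart. Without Soshiho-tang high replicate 2 the Soshiho-tang count was 6, and without low replicate 2 it was 5. For Zizyphi Semen it was 1 without high replicate 1, low replicate 1 or high replicate 3, and 0 without high replicate 2 or low replicate 3. Over the 31 members, the median log2 change was -0.044 in Soshiho-tang, 0.0031 in Yijin-tang, 0.076 in Schisandrae Fructus, -0.02 in Liriopis, 0.015 in Longan and -0.029 in Zizyphi, beside medians of all genes between -0.003 and 0.00072. In Schisandrae Fructus 25 of the 31 members lay above 0, beside 8913 of 18228 genes.

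**Figure D2:**
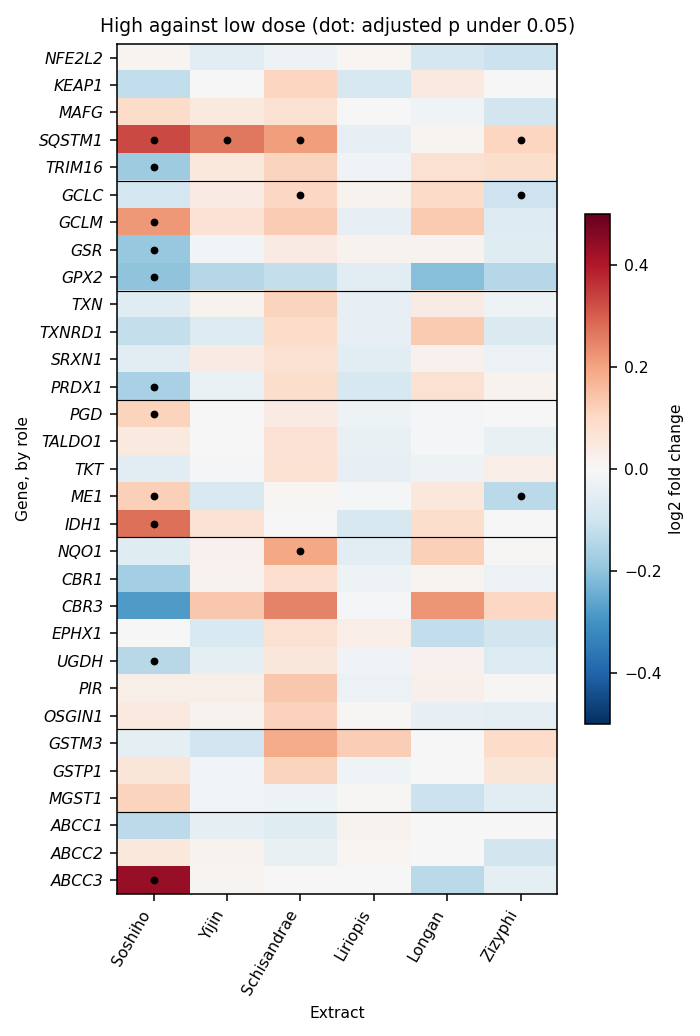
Log2 change from low to high dose for the 31 genes (rows, by role) in 6 extracts (columns); red is higher and blue lower at the high dose, and a dot marks adjusted p under 0.05. SQSTM1 carries a dot in 4 of 6 columns, and Soshiho-tang holds 11 of the 18 dots.

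Among the regulators, SQSTM1 gave the most repeated change. Its libraries measured 894 and 897 CPM in Soshiho-tang high and 715 and 711 CPM in the low dose, a log2 change of 0.33 ± 0.0345 (SE), adjusted p = 4.57e-10. In Yijin-tang they measured 886, 847 and 846 CPM at the high and 705, 728 and 715 CPM at the low dose (0.27 ± 0.0282 (SE), adjusted p = 4.94e-09). Schisandrae Fructus gave 838, 847 and 802 against 728, 704 and 721 CPM (0.21 ± 0.0281 (SE), adjusted p = 4.43e-06). High and low libraries did not overlap in any of these extracts, and the high ones also lay above the 3 vehicle libraries at 734, 759.8 and 789 CPM. The medium doses lay below the high ones, at 753, 727 and 736 CPM in Yijin-tang and 732, 781 and 729 CPM in Schisandrae Fructus. In Zizyphi Semen the rise was smaller, 764, 758 and 748 against 699.6, 703 and 702 CPM (0.11 ± 0.0282 (SE), adjusted p = 0.038), the high libraries lay within the vehicle range, and the call was lost when any 1 of the 6 libraries was left out. In Liriopis seu Ophiopogonis Tuber SQSTM1 stood at 718, 714 and 699.9 CPM at the high and 755, 719 and 718 CPM at the low dose. With all 54 libraries the adjusted p was 0.00686 in Soshiho-tang, 0.0499 in Yijin-tang, 0.496 in Schisandrae Fructus and 1 in Zizyphi Semen. MGAT4B (100 CPM in vehicle) and MRNIP overlap SQSTM1 on the opposite strand, and the strand setting of the counting is not given in the sources used here.

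NFE2L2, the gene of NRF2 itself, was not called between high and low dose of any replicated extract. For NFE2L2, vehicle libraries measured 119.9, 119 and 128 CPM. NFE2L2 in Soshiho-tang measured 129 and 127 at the low, 123 at the medium and 128 and 129 CPM at the high dose. NFE2L2 in Yijin-tang measured 126, 120.2 and 119 at the low, 120.3, 116 and 117 at the medium and 120.1, 114 and 117 CPM at the high dose. Of the Soshiho-tang libraries 3 of 5 lay above the vehicle range, and of the Yijin-tang libraries 4 of 9 lay below it. NFE2L2 in Schisandrae Fructus measured 118, 117 and 114 at the low, 119, 118 and 118 at the medium and 118, 112 and 113 CPM at the high dose. NFE2L2 in Liriopis seu Ophiopogonis Tuber measured 123, 114 and 121 at the low, 117, 111 and 112 at the medium and 117, 118 and 125 CPM at the high dose. In both extracts of this set the high and low libraries overlapped. NFE2L2 in Longan Arillus measured 132 and 133 at the low, 122, 124 and 132 at the medium and 125, 122 and 128 CPM at the high dose. NFE2L2 in Zizyphi Semen measured 134, 132 and 131 at the low, 135, 130 and 127 at the medium and 124, 126 and 118 CPM at the high dose. All kept low libraries of both extracts lay above vehicle and above their own high libraries. Against vehicle the low doses of Longan Arillus (0.12 ± 0.0386 (SE), adjusted p = 0.0207) and Zizyphi Semen (0.11 ± 0.0347 (SE), adjusted p = 0.0116) were higher. The Longan call was lost without vehicle replicate 1 or 2 or without either low library, and the Zizyphi call without vehicle replicate 2. The fit of 54 libraries gave adjusted p-values of 0.00213 and 0.187. The first includes Longan low replicate 3, which stood apart and read 153.9 CPM. AGPS (118 CPM in vehicle) overlaps NFE2L2 on the opposite strand.

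KEAP1, the adaptor that marks NRF2 for destruction, was lower than vehicle in most groups and was not called between doses. For KEAP1, vehicle libraries measured 69.1, 70.7 and 73.3 CPM. KEAP1 in Soshiho-tang measured 62.7 and 61.5 at the low, 60.2 at the medium and 56.3 and 57.8 CPM at the high dose. KEAP1 in Yijin-tang measured 61.6, 64.2 and 63.5 at the low, 64.4, 64.9 and 70.3 at the medium and 64.5, 65.5 and 59.5 CPM at the high dose. Every kept library of these extracts lay below the vehicle libraries except Yijin-tang medium replicate 3, which lay inside their range. KEAP1 in Schisandrae Fructus measured 63.8, 62.9 and 64 at the low, 66.1, 66.9 and 63 at the medium and 68.1, 69.2 and 68.2 CPM at the high dose. KEAP1 in Liriopis seu Ophiopogonis Tuber measured 66.3, 67.8 and 64 at the low, 66.1, 64.8 and 62.6 at the medium and 62.6, 65.6 and 58.7 CPM at the high dose. Schisandrae Fructus came nearest to vehicle at its high dose, and Liriopis had its lowest value in a high library. KEAP1 in Longan Arillus measured 61.9 and 58.7 at the low, 64, 56.8 and 56.2 at the medium and 65.2, 61.6 and 60.8 CPM at the high dose. KEAP1 in Zizyphi Semen measured 66.2, 62 and 57 at the low, 60.6, 60.4 and 53.6 at the medium and 62, 62 and 61.1 CPM at the high dose. The log2 change from vehicle to high dose was -0.32 in Soshiho-tang (adjusted p = 1.7e-05; 0.00935 with all 54 libraries) and -0.053 in Schisandrae Fructus (adjusted p = 0.58). Vehicle libraries lie only in their own set, so set and treatment cannot be told apart here.

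MAFG, a small MAF partner of NRF2, was not called between doses. For MAFG, vehicle libraries measured 112, 114 and 118 CPM. MAFG in Soshiho-tang measured 112 and 104 at the low, 102 at the medium and 110.3 and 119 CPM at the high dose. MAFG in Yijin-tang measured 104, 106 and 111 at the low, 105, 102 and 105 at the medium and 112, 109 and 110.4 CPM at the high dose. The high Soshiho-tang libraries spanned the vehicle range, and those of Yijin-tang lay just below it. MAFG in Schisandrae Fructus measured 102, 104 and 106 at the low, 102, 107 and 102 at the medium and 109, 115 and 104 CPM at the high dose. MAFG in Liriopis seu Ophiopogonis Tuber measured 104, 102 and 97.8 at the low, 102, 103 and 101 at the medium and 103, 104 and 96.9 CPM at the high dose. Liriopis libraries were lower than vehicle at every dose without overlap. MAFG in Longan Arillus measured 107 and 109 at the low, 96.3, 106 and 106 at the medium and 105, 108 and 107 CPM at the high dose. MAFG in Zizyphi Semen measured 114, 107 and 102 at the low, 107, 112 and 101 at the medium and 103, 97.8 and 102 CPM at the high dose. Against vehicle MAFG fell in the low doses of Schisandrae Fructus (-0.14 ± 0.0412 (SE), adjusted p = 0.0297) and Liriopis (-0.18 ± 0.0415 (SE), adjusted p = 0.00724) and in the high doses of Liriopis (-0.18) and Zizyphi Semen (-0.18). The Schisandrae call was lost without vehicle replicate 2 or 3 or low replicate 1 or 2, the Liriopis low call without vehicle replicate 3 or low replicate 3, and the Liriopis high call without high replicate 3; none of these calls was made with all 54 libraries.

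TRIM16, a ubiquitin ligase that binds NRF2, KEAP1 and p62, fell in Soshiho-tang from 238 and 246 to 206 and 222 CPM (-0.18 ± 0.0441 (SE), adjusted p = 0.00508), without overlap. The call was lost without high replicate 2 or low replicate 3, and with all 54 libraries (adjusted p = 0.157). Against vehicle (264, 252 and 272 CPM) it fell in the high doses of Soshiho-tang (-0.30), Longan Arillus (-0.18) and Zizyphi Semen (-0.20), and in the low doses of Longan Arillus (-0.26) and Zizyphi Semen (-0.29), calls that the fit with all 54 libraries also made. TRIM16L is a near-identical copy, so reads may be split between the 2 genes.

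Glutathione synthesis starts with glutamate-cysteine ligase. GCLC, its catalytic subunit, rose with dose in Schisandrae Fructus and fell in Zizyphi Semen. For GCLC, vehicle libraries measured 276, 274 and 271 CPM. GCLC in Soshiho-tang measured 280.4 and 283 at the low, 276 at the medium and 266 and 264 CPM at the high dose. GCLC in Yijin-tang measured 287, 282 and 290.4 at the low, 293, 288 and 286 at the medium and 296, 301 and 287 CPM at the high dose. High libraries lay below the low ones in Soshiho-tang and overlapped them in Yijin-tang. GCLC in Schisandrae Fructus measured 285, 288 and 282 at the low, 285, 296 and 298 at the medium and 303, 296 and 319.7 CPM at the high dose. GCLC in Liriopis seu Ophiopogonis Tuber measured 288, 281 and 296 at the low, 288, 285 and 288 at the medium and 294, 288 and 292 CPM at the high dose. All 3 Schisandrae high libraries lay above the low ones, while Liriopis high and low libraries overlapped. GCLC in Longan Arillus measured 275 and 271 at the low, 289, 284 and 289 at the medium and 295, 289 and 292 CPM at the high dose. GCLC in Zizyphi Semen measured 290.2, 278 and 283 at the low, 282, 281 and 291 at the medium and 263, 264 and 266 CPM at the high dose. In Longan Arillus high libraries lay above the kept low ones, and in Zizyphi Semen below them. The log2 change between high and low dose was 0.10 ± 0.0259 (SE), adjusted p = 0.0233, in Schisandrae Fructus and -0.10 ± 0.0261 (SE), adjusted p = 0.0285, in Zizyphi Semen. It was 0.097 ± 0.0291 (SE), adjusted p = 0.161, in Longan Arillus. The Schisandrae call was lost without low replicate 1, 2 or 3 or high replicate 3, the Zizyphi call in 5 of 6 such omissions, and neither was made with all 54 libraries (adjusted p = 0.767 and 0.826).

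GCLM, the modifier subunit of the ligase, rose with dose in Soshiho-tang. For GCLM, vehicle libraries measured 229.5, 209 and 227 CPM. GCLM in Soshiho-tang measured 244 and 247 at the low, 246 at the medium and 282 and 288 CPM at the high dose. GCLM in Yijin-tang measured 232, 243 and 245 at the low, 246, 243 and 229.6 at the medium and 257, 254 and 247 CPM at the high dose. Both high Soshiho-tang libraries lay above every other replicated library that was kept, and those of Yijin-tang overlapped no low library. GCLM in Schisandrae Fructus measured 227, 246 and 239.9 at the low, 247, 253 and 247 at the medium and 243, 272 and 265 CPM at the high dose. GCLM in Liriopis seu Ophiopogonis Tuber measured 235, 240 and 246 at the low, 248, 242 and 245 at the medium and 238, 221 and 242 CPM at the high dose. In these extracts the high and low libraries overlapped. GCLM in Longan Arillus measured 222 and 218 at the low, 241, 222 and 223 at the medium and 256, 236 and 230.3 CPM at the high dose. GCLM in Zizyphi Semen measured 226, 220.3 and 222 at the low, 231, 221 and 229.7 at the medium and 217, 208 and 213 CPM at the high dose. Longan Arillus high libraries lay above the kept low ones and Zizyphi high libraries below them, without a call. The Soshiho-tang log2 change was 0.22 ± 0.0492 (SE), adjusted p = 0.00194, kept without any 1 of the 4 libraries and not made with all 54 (adjusted p = 0.758). Against vehicle GCLM rose at the high dose of Soshiho-tang (0.36 ± 0.0445 (SE), adjusted p = 1.79e-08), Schisandrae Fructus (0.23 ± 0.04 (SE), adjusted p = 9.25e-05), Yijin-tang (0.19 ± 0.0402 (SE), adjusted p = 0.0015) and Longan Arillus (0.12 ± 0.0402 (SE), adjusted p = 0.0389), and none of their low doses was called. The Longan call was lost in 4 of 6 omissions of 1 library, the other three in none. The fit of 54 libraries made none of these calls (adjusted p = 0.0854, 0.571, 0.831 and 0.801).

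GSR, which regenerates reduced glutathione with NADPH, fell in Soshiho-tang from 424 and 396 to 353 and 365 CPM (-0.19 ± 0.0366 (SE), adjusted p = 0.000252). GPX2, a glutathione peroxidase, fell there from 230 and 215 to 185 and 202 CPM (-0.20 ± 0.0588 (SE), adjusted p = 0.019). High and low libraries overlapped in neither gene. The GSR call was lost without low replicate 2, and the GPX2 call without high or low replicate 2. Neither was made in the fit of 54 libraries (adjusted p = 0.0813 and 0.358). In Soshiho-tang 1 of 4 glutathione genes (GCLM) rose, where 5.02% of all genes did, and 2 fell, where 4.49% did.

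TXNRD1, thioredoxin reductase, lay below vehicle in every kept library of the replicated extracts and was not called between doses. For TXNRD1, vehicle libraries measured 1954, 1995 and 1995 CPM. TXNRD1 in Soshiho-tang measured 1796 and 1789 at the low, 1708 at the medium and 1607 and 1695 CPM at the high dose. TXNRD1 in Yijin-tang measured 1720, 1723 and 1768 at the low, 1724, 1752 and 1734 at the medium and 1627, 1726 and 1617 CPM at the high dose. All kept libraries of both extracts lay below the 3 vehicle libraries. TXNRD1 in Schisandrae Fructus measured 1751, 1741 and 1767 at the low, 1823, 1753 and 1757 at the medium and 1892, 1817 and 1895 CPM at the high dose. TXNRD1 in Liriopis seu Ophiopogonis Tuber measured 1820, 1799 and 1783 at the low, 1821, 1787 and 1857 at the medium and 1781, 1791 and 1671 CPM at the high dose. The same held for both extracts of this set, with Schisandrae high nearest to vehicle. TXNRD1 in Longan Arillus measured 1594 and 1491 at the low, 1786, 1643 and 1545 at the medium and 1805, 1624 and 1633 CPM at the high dose. TXNRD1 in Zizyphi Semen measured 1689, 1585 and 1504 at the low, 1634, 1575 and 1541 at the medium and 1522, 1549 and 1473 CPM at the high dose. The lowest kept library was one of Zizyphi high and the next one of Longan low. The log2 change against vehicle was -0.36 in Longan low (adjusted p = 7.53e-08) and -0.39 in Zizyphi high (adjusted p = 1.09e-09), -0.26 in Soshiho-tang high, -0.26 in Yijin-tang high and -0.085 in Schisandrae high (adjusted p = 0.184). With all 54 libraries the adjusted p was 0.000153, 7.7e-05, 0.00916 and 0.016 in the first 4 of these.

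SRXN1, sulfiredoxin, which repairs over-oxidized peroxiredoxins, also lay below vehicle in every such library. For SRXN1, vehicle libraries measured 459.8, 461 and 473 CPM. SRXN1 in Soshiho-tang measured 423 and 412 at the low, 412 at the medium and 395 and 409 CPM at the high dose. SRXN1 in Yijin-tang measured 399, 416 and 425 at the low, 418, 438 and 439.5 at the medium and 421, 425 and 429.6 CPM at the high dose. Each kept library of both extracts lay below the vehicle libraries. SRXN1 in Schisandrae Fructus measured 432, 417 and 433 at the low, 434, 451 and 443 at the medium and 444, 456 and 451 CPM at the high dose. SRXN1 in Liriopis seu Ophiopogonis Tuber measured 458, 438 and 429.9 at the low, 428, 417 and 448 at the medium and 419, 446 and 413 CPM at the high dose. Schisandrae high libraries lay above its low ones, and Liriopis high and low libraries overlapped. SRXN1 in Longan Arillus measured 417 and 412 at the low, 439.5, 423 and 408 at the medium and 431, 419.8 and 412 CPM at the high dose. SRXN1 in Zizyphi Semen measured 423, 416 and 388 at the low, 423, 434 and 385 at the medium and 408, 409 and 385 CPM at the high dose. All kept libraries of both extracts lay below vehicle. SRXN1 was not called between doses, and against vehicle its log2 change at the high dose was -0.21 in Soshiho-tang, -0.21 in Zizyphi Semen and -0.046 in Schisandrae Fructus (adjusted p = 0.000153, 3.57e-05 and 0.521). The fit of 54 libraries gave adjusted p-values for the first 2 of 0.139 and 0.0782.

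PRDX1 fell in Soshiho-tang from 749 and 729 to 630.3 and 688 CPM (-0.16 ± 0.0403 (SE), adjusted p = 0.00464), a call lost without high or low replicate 2. Against the vehicle libraries at 848, 854 and 840.2 CPM it was lower at both doses of all 6 extracts. At the low dose the log2 change was -0.20 in Soshiho-tang, -0.17 in Yijin-tang, -0.19 in Schisandrae Fructus, -0.16 in Liriopis, -0.29 in Longan Arillus and -0.32 in Zizyphi Semen. These 6 comparisons share the same 3 vehicle libraries, and none was called with all 54 libraries. With Longan Arillus low replicate 3 (1673 CPM) included, the Longan value turned to 0.29. TXN, thioredoxin itself, ranged only 1.14-fold between group means.

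Of the 5 pentose phosphate and NADPH enzymes, 3 rose and 0 fell in Soshiho-tang (5.02% and 4.49% of all genes). IDH1, cytosolic isocitrate dehydrogenase, went from 225 and 218 to 261 and 275 CPM (0.28 ± 0.0404 (SE), adjusted p = 1.8e-06). PGD, which makes NADPH from 6-phosphogluconate, went from 1405 and 1410 to 1522 and 1519 CPM (0.11 ± 0.0281 (SE), adjusted p = 0.00557). ME1, the cytosolic malic enzyme, went from 155 and 151 to 162 and 169 CPM (0.12 ± 0.0356 (SE), adjusted p = 0.0252). High libraries lay above the low ones in each. The IDH1 call held without any 1 library, the PGD call was lost without high or low replicate 2, and the ME1 call without low replicate 2, high replicate 3 or low replicate 3. With all 54 libraries the adjusted p was 0.354 for IDH1, 0.961 for PGD and 0.812 for ME1. In Zizyphi Semen ME1 fell from 151, 146 and 151 to 139, 131 and 137 CPM (-0.14 ± 0.0293 (SE), adjusted p = 0.00677; 1 with all 54). TKT and TALDO1, which carry the non-oxidative branch, were not called between doses of any replicated extract.

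NQO1 rose with dose in Schisandrae Fructus. For NQO1, vehicle libraries measured 1499, 1484 and 1484 CPM. NQO1 in Soshiho-tang measured 1399 and 1409 at the low, 1316 at the medium and 1283 and 1408 CPM at the high dose. NQO1 in Yijin-tang measured 1360, 1416 and 1455 at the low, 1435, 1396 and 1411 at the medium and 1437, 1418 and 1435 CPM at the high dose. In both decoctions the high and low libraries overlapped, and all kept libraries lay below vehicle. NQO1 in Schisandrae Fructus measured 1363, 1344 and 1425 at the low, 1408, 1492 and 1405 at the medium and 1586, 1620 and 1515 CPM at the high dose. NQO1 in Liriopis seu Ophiopogonis Tuber measured 1467, 1382 and 1349 at the low, 1376, 1337 and 1400 at the medium and 1354, 1402 and 1290 CPM at the high dose. Schisandrae high libraries lay above the low ones and above vehicle, and Liriopis libraries lay below vehicle. In the same order, slopes of counts on transcript length were 0.0226, -0.0309 and 0.0402 in Schisandrae high and 0.0501, 0.0504 and 0.008 in Schisandrae low. In vehicle the slopes were 0.018, 0.00473 and 0.0192. Within the Schisandrae high dose and within its low dose, NQO1 was higher where the slope was lower. The part of the slope was not tested. NQO1 in Longan Arillus measured 1257 and 1238 at the low, 1305, 1319 and 1249 at the medium and 1352, 1356 and 1361 CPM at the high dose. NQO1 in Zizyphi Semen measured 1265, 1275 and 1221 at the low, 1238, 1243 and 1193 at the medium and 1276, 1251 and 1253 CPM at the high dose. Longan high libraries lay above the kept low ones, and all kept libraries of both extracts lay below vehicle. Longan low replicate 3, which stood apart, read 2799 CPM. The Schisandrae log2 change was 0.19 ± 0.0328 (SE), adjusted p = 0.0003, kept without any 1 of the 6 libraries and not made with all 54 (adjusted p = 1). An antisense RNA of 10.3 CPM overlaps NQO1.

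UGDH, which makes UDP-glucuronate for conjugation, fell in Soshiho-tang from 487 and 481 to 429.9 and 449 CPM (-0.14 ± 0.0339 (SE), adjusted p = 0.00452), a call lost without high or low replicate 2. PIR, an iron-binding nuclear protein, was higher than vehicle (50.1, 49.4 and 46.5 CPM) in Schisandrae high, at 54.2, 56.2 and 56.1 CPM (0.19 ± 0.046 (SE), adjusted p = 0.00499), lost without vehicle replicate 3 and with all 54 libraries (adjusted p = 0.654). EPHX1, an epoxide hydrolase, rose against vehicle in 5 comparisons: the low doses of Yijin-tang (0.12), Longan Arillus (0.20) and Zizyphi Semen (0.17) and the high doses of Soshiho-tang (0.12) and Schisandrae Fructus (0.11). The adjusted p was 0.0435, 0.000231, 0.00046, 0.0254 and 0.0364 in that order. Leaving out 1 library in turn lost these EPHX1 calls in 6 of 6, 1 of 5, 0 of 6, 2 of 5 and 5 of 6 omissions, and of the 5 the fit of 54 libraries made the Longan call alone (adjusted p = 0.0302). The remaining enzymes, CBR1, CBR3 and OSGIN1, and the transferases GSTM3, GSTP1 and MGST1 were not called between doses of any replicated extract. CBR1 and CBR3 are paralogs that may share reads.

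Among the exporters, ABCC3 rose in Soshiho-tang from 449 and 484 to 627 and 634 CPM (0.44 ± 0.0561 (SE), adjusted p = 1.5e-07), beside vehicle at 414, 418 and 414 CPM. The high libraries lay above every other kept replicated library, and the call held without any 1 library and with all 54 (adjusted p = 0.0197). ABCC1 and ABCC2 were not called between doses. In Longan Arillus, ABCC3 replicates spread more than elsewhere, at 444, 506 and 507 CPM at the high and 449, 516 and 556 CPM at the medium dose.

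**Figure D3:**
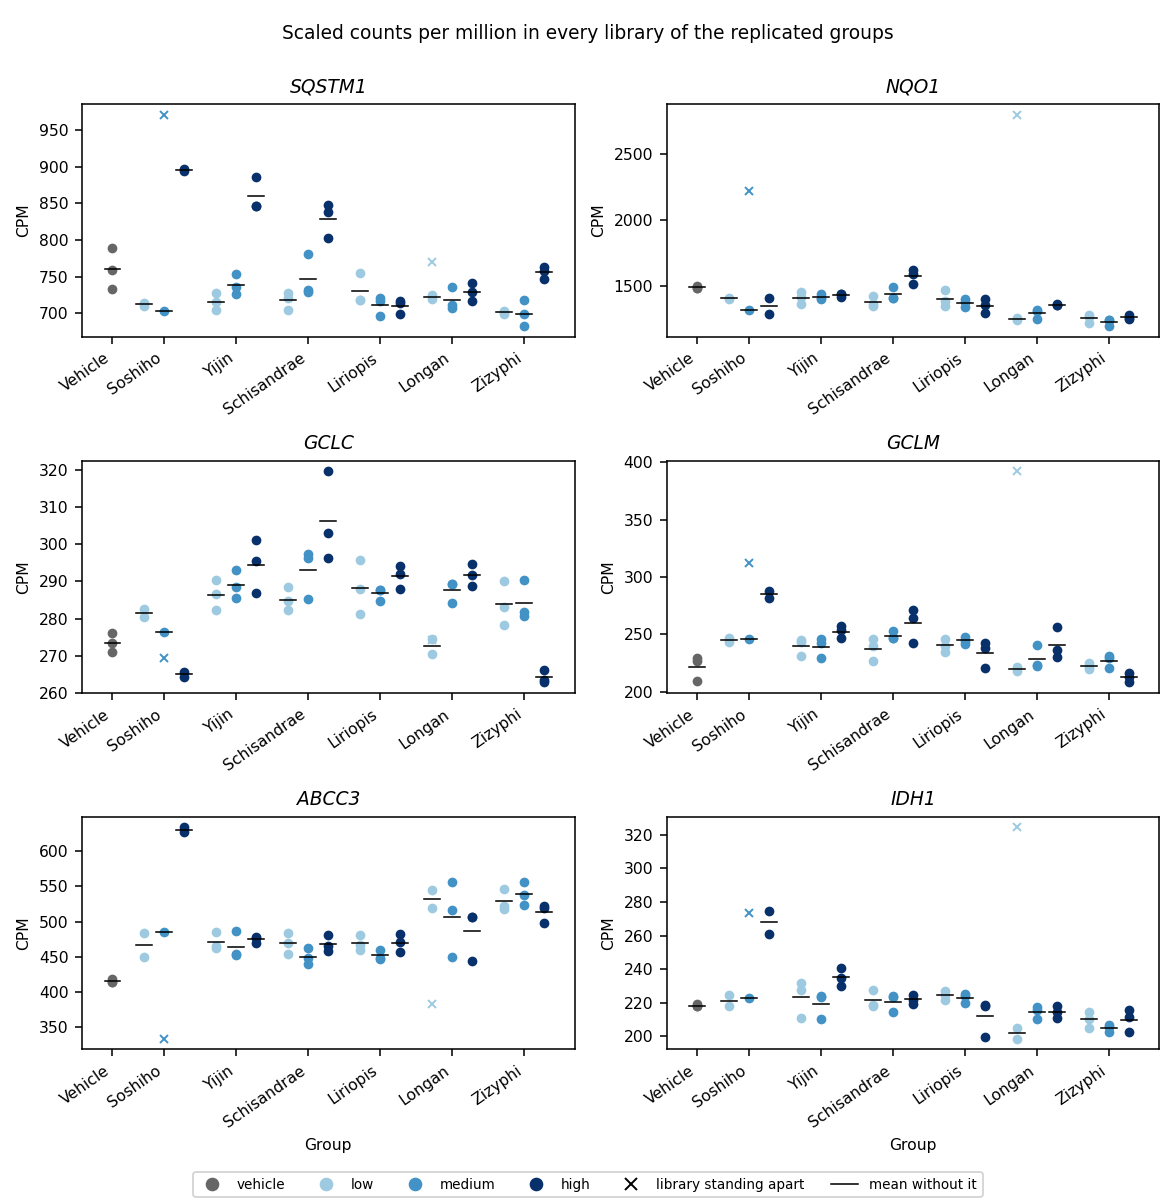
CPM of 6 genes in every library of vehicle and the 6 replicated extracts (points; dose by shade; lines are group means; crosses are the libraries standing apart, left out of the means). SQSTM1 high-dose points of Soshiho-tang, Yijin-tang and Schisandrae Fructus lie above every vehicle point, NQO1 lies highest in Schisandrae high among circles, and ABCC3 and IDH1 lie highest in Soshiho-tang high among circles.

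Genes of the same pathway outside the 31 were taken from 5 further lists. Of 22 further NRF2 targets, 9 rose and 0 fell in Schisandrae Fructus (0.911% and 0.625% of all genes). They included HMOX1, which breaks down heme, from 150.0 to 184 CPM (0.30 ± 0.0466 (SE), adjusted p = 7.03e-05), the carboxylesterase CES1 (0.30 ± 0.0576 (SE), adjusted p = 0.00213), NR0B1 (0.25 ± 0.0517 (SE), adjusted p = 0.00409) and the biliverdin reductase BLVRB (0.19 ± 0.0411 (SE), adjusted p = 0.00551). In Soshiho-tang, where 5.02% of all genes rose and 4.49% fell, 5 of the 22 rose and 0 fell: SLC6A9, a glycine transporter (0.88), HMOX1 (0.88), the lipase ABHD4 (0.31), FTH1, the ferritin heavy chain (0.24), and SLC48A1, a heme transporter. HMOX1 alone rose in Yijin-tang (0.28; 0.477% of all genes rose), and ALDH3A1 alone fell in Zizyphi Semen (-0.23; 0.702% fell). Of 17 further pentose phosphate and NADPH genes, 5 rose and 4 fell in Soshiho-tang, against the same shares of all genes. The folate enzyme ALDH1L2 (1.18), ribokinase RBKS (0.64) and the malic enzyme ME3 (0.42) rose, and the ribose-phosphate kinase PRPS2 fell by 0.27. Of 19 further antioxidant enzymes 2 rose and 3 fell there, with SOD2 at 0.28 and GPX1 at -0.25, and of 14 NRF2 partners and rivals 2 rose and 1 fell (MAFF 0.45, NFE2L1 0.19, CUL3 -0.18). In Yijin-tang the mitochondrial superoxide dismutase SOD2 rose (0.30 ± 0.047 (SE), adjusted p = 4.8e-05), and in Schisandrae Fructus GPX1 fell (-0.28 ± 0.049 (SE), adjusted p = 0.000496) and the mitochondrial NADPH enzyme IDH2 rose (0.26 ± 0.0448 (SE), adjusted p = 0.000311). By edgeR 0 of the 8 tested of 10 further glutathione transferases were called in the 6 comparisons. At an unadjusted p under 0.05 there were 2 in Soshiho-tang, Schisandrae Fructus and Liriopis each, 1 in Longan Arillus and 0 in the other two, beside 20.8%, 12.3%, 5.16% and 10.7% of all genes in those 4 extracts. The median log2 change of the 22 targets was 0.145 in Schisandrae Fructus (16 above 0) and 0.061 in Soshiho-tang (15 above 0), beside -0.003 and -0.0017 over all genes. The further lists were fitted on the 52 libraries only.

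Marker sums of other cell types moved beside some of these changes. In Soshiho-tang the sum of 8 fibroblast markers was 33.4 to 36.7 CPM at the high and 42.9 to 43.8 CPM at the low dose, with 2 markers lower, 0 higher without overlap and COL1A2 and FAP at 0. Its neural sum was 117 to 120 against 114 to 115 CPM, and the leukocyte sum 18.8 against 16.6 to 18.2 CPM (1 higher and 1 lower of 8), with PTPRC and CD3E at 0. In Yijin-tang the neural sum was 104 to 109 against 116 to 120 CPM (3 of 6 lower), in Zizyphi Semen 105 to 107 against 117 to 122 CPM (3 of 6 lower), and in Longan Arillus 106 to 110 against 115 to 119 CPM (3 of 6 lower). The epithelial sum was 5850 to 5960 against 6180 to 6310 CPM in Zizyphi Semen (2 of 5 higher, 2 lower) and 5730 to 6020 against 6250 to 6420 CPM in Longan Arillus (1 higher, 3 lower). The Zizyphi leukocyte sum was 21.4 to 22 against 16.8 to 19.5 CPM (1 of 8 higher), with CD3E at 0. The Schisandrae fibroblast sum was 42.8 to 43.5 against 43.7 to 48.2 CPM (0 of 8 without overlap). Hepatocyte sums were low, at 1.17 to 1.56 against 0.791 to 0.834 CPM in Soshiho-tang (1 of 6 higher, APOA2 at 0). In Yijin-tang they were 0.398 to 0.844 against 0.9 to 1.19 CPM (0 of 6 without overlap, APOA2 at 0). The mitochondrial share in Longan Arillus was 10.82% to 11.97% at the high and 12.2% to 12.87% at the low dose. Their part in the results was not tested.

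The next comparison asked whether the change from low to high dose differed between the 2 extracts of a set. Between Soshiho-tang and Yijin-tang, 3 members were higher (1.61% of all genes were) and 2 lower (0.971%) in the difference. ABCC3 differed by 0.42 ± 0.0724 (SE; adjusted p = 0.000128), IDH1 by 0.20 and ME1 by 0.19, all larger in Soshiho-tang, while TRIM16 (-0.23) and GSR (-0.175) were lower there. Between Schisandrae Fructus and Liriopis, SQSTM1 (0.25 ± 0.0398, adjusted p = 0.000852) and NQO1 (0.245 ± 0.0464, adjusted p = 0.00649) differed, both larger in Schisandrae Fructus (0.197% of all genes higher, 0.121% lower). Between Longan Arillus and Zizyphi Semen, GCLC differed by 0.20 ± 0.0391 (adjusted p = 0.00822; 0.0549% of all genes higher). The fit with all 54 libraries called 0 members in each of the 3. The ABCC3 and SQSTM1 calls held without any 1 library, NQO1 was lost without Liriopis low replicate 1 and GCLC without Longan low replicate 2. TRIM16 was lost without Soshiho-tang high replicate 2 or low replicate 3, ME1 without high or low replicate 3, IDH1 without high or low replicate 3 of either decoction, and GSR in 6 of 10 omissions. The Soshiho-tang count was 3 without its high replicate 2 or 3 or Yijin-tang high replicate 3, and 2 without its low replicate 3; that of Longan and Zizyphi was 2 without Zizyphi high replicate 1.

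Against vehicle, TXNRD1, PRDX1, SRXN1 and KEAP1 were lower and ABCC3 higher in most extracts already at the low dose. All of these comparisons share the same 3 vehicle libraries, which lie in a set of their own. At the low dose 3 members fell and 0 rose in Soshiho-tang (2.13% and 0.922% of all genes, 3.06% in all), 5 fell and 3 rose in Yijin-tang (2.16% and 1.45%, 3.61% in all), and 6 fell and 1 rose in Schisandrae Fructus (3.98% and 2.36%, 6.35% in all). In Liriopis 3 fell and 1 rose (2.35% and 1.54%, 3.89% in all), in Longan Arillus 10 fell and 5 rose (13.9% and 11.2%, 25.1% in all), and in Zizyphi Semen 14 fell and 4 rose (14.6% and 12.1%, 26.7% in all). ABCC3 measured 414, 418 and 414 CPM in vehicle, 519.8 and 545 CPM in Longan low and 518, 546 and 522 CPM in Zizyphi low, with no overlap. Its log2 change was 0.36 ± 0.0507 (SE), adjusted p = 1.33e-06, in Longan and 0.35 ± 0.0458 (SE), adjusted p = 2.43e-07, in Zizyphi, and these held with all 54 libraries (adjusted p = 0.039 and 0.0108). MGST1, a membrane glutathione transferase, was also higher in Longan low (0.33) and Zizyphi low (0.30). With all 54 libraries the adjusted p was 0.000207 for Longan and 0.114 for Zizyphi. That Longan value includes low replicate 3, which stood apart and read 687 CPM, against 407 and 447 CPM in the kept libraries. In the low-dose libraries the mitochondrial share was 9.051% to 12.87%, against 8.604% to 8.879% in vehicle, and was highest in Longan Arillus (12.2% to 12.87%) and Zizyphi Semen (11.23% to 12.82%). The neural marker sum was 114 to 122 CPM against 103 to 110 CPM (1 to 3 of 6 markers higher and 0 to 2 lower without overlap in an extract), and the fibroblast sum 42.3 to 48.2 CPM against 41.5 to 42.2 CPM (1 to 3 of 8 higher, 0 lower, FAP at 0). The epithelial sum was 5840 to 6270 CPM in Yijin-tang, Soshiho-tang, Schisandrae and Liriopis (1 to 3 of 5 lower, 0 to 1 higher) against 6300 to 6680 CPM in vehicle, and overlapped vehicle in the other two. The leukocyte sum lay above vehicle (15 to 16.8 CPM) in Longan (17.1 to 23.5 CPM, 2 of 8 higher) and Schisandrae (16.9 to 18.3 CPM, 1 of 8 higher), with CD3E at 0. Their part in the comparisons with vehicle was not tested. With all 54 libraries the low-dose counts were 0 in Soshiho-tang, Yijin-tang, Schisandrae Fructus and Liriopis, 16 in Longan Arillus (9 higher, 7 lower) and 4 in Zizyphi Semen.

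At the high dose 12 members fell and 8 rose against vehicle in Soshiho-tang (11.3% and 10.2% of all genes, 21.5% in all), 6 fell and 5 rose in Yijin-tang (4.13% and 3.04%, 7.17% in all), and 1 fell and 6 rose in Schisandrae Fructus (4.92% and 4.23%, 9.15% in all). In Liriopis 9 fell and 2 rose (4.65% and 2.62%, 7.27% in all), in Longan Arillus 8 fell and 4 rose (8.26% and 5.55%, 13.8% in all), and in Zizyphi Semen 15 fell and 2 rose (12.8% and 9.29%, 22.1% in all). The 6 that rose in Schisandrae high were SQSTM1, GCLC, GCLM, EPHX1, PIR and ABCC3, and PRDX1 fell, a call lost in 5 of 6 omissions. ABCC3 reached its largest value in Soshiho-tang high, 0.60 ± 0.0506 (SE; adjusted p = 7.75e-13, and 4.4e-05 with all 54 libraries). MAFG, ME1 and ABCC2 fell against vehicle in Zizyphi high and were not called in its low dose. In the high-dose libraries the epithelial sum was 5670 to 6060 CPM, below vehicle in all 6 extracts (1 to 3 of 5 lower, 0 to 2 higher), and the mitochondrial share 9.478% to 13.47% outside Yijin-tang, which overlapped vehicle. The fibroblast sum was 33.4 to 36.7 CPM in Soshiho-tang (1 of 8 lower), below vehicle at 41.5 to 42.2 CPM. It lay above vehicle in Zizyphi (44.5 to 46.9 CPM, 3 of 8 higher), Liriopis (44.2 to 46.6 CPM, 1 higher) and Schisandrae (42.8 to 43.5 CPM, 2 higher). The leukocyte sum was 18.8 CPM in Soshiho-tang (1 of 8 higher) and 21.4 to 22 CPM in Zizyphi (2 of 8 higher). The hepatocyte sum was 1.17 to 1.56 CPM in Soshiho-tang (1 of 6 higher), above vehicle at 0.662 to 0.966 CPM. The neural sum was 112 to 120 CPM in Soshiho-tang, Schisandrae and Liriopis (1 to 3 of 6 higher, 0 to 1 lower). Their part here was not tested either. With all 54 libraries the high-dose counts were 7, 1, 1, 0, 2 and 5, in the order of extracts above.

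Several vehicle counts rest on single libraries. The Soshiho-tang low count of 3 was 5 without vehicle replicate 1, 1 without vehicle replicate 2 or 3 or low replicate 2, and 0 without low replicate 3. Yijin-tang low (8) was 5 without vehicle replicate 2 or low replicate 2 or 3, 4 without vehicle replicate 3 and 3 without low replicate 1. Schisandrae low (7) was 4 without vehicle replicate 2, 3 without low replicate 2, and 2 without vehicle replicate 3 or low replicate 1. Liriopis low (4) was 2 without vehicle replicate 2 or low replicate 2, and 1 without vehicle replicate 3 or low replicate 3. At the high dose, Yijin-tang (11) was 7 without vehicle replicate 2, Schisandrae (7) was 4 without vehicle replicate 3 or high replicate 1, and Liriopis (11) was 6 without vehicle replicate 2 or 3 or high replicate 1, and 2 without high replicate 3. Of 55 low-dose and 78 high-dose calls against vehicle, 29 and 44 held without every single library in turn.

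**Figure D4:**
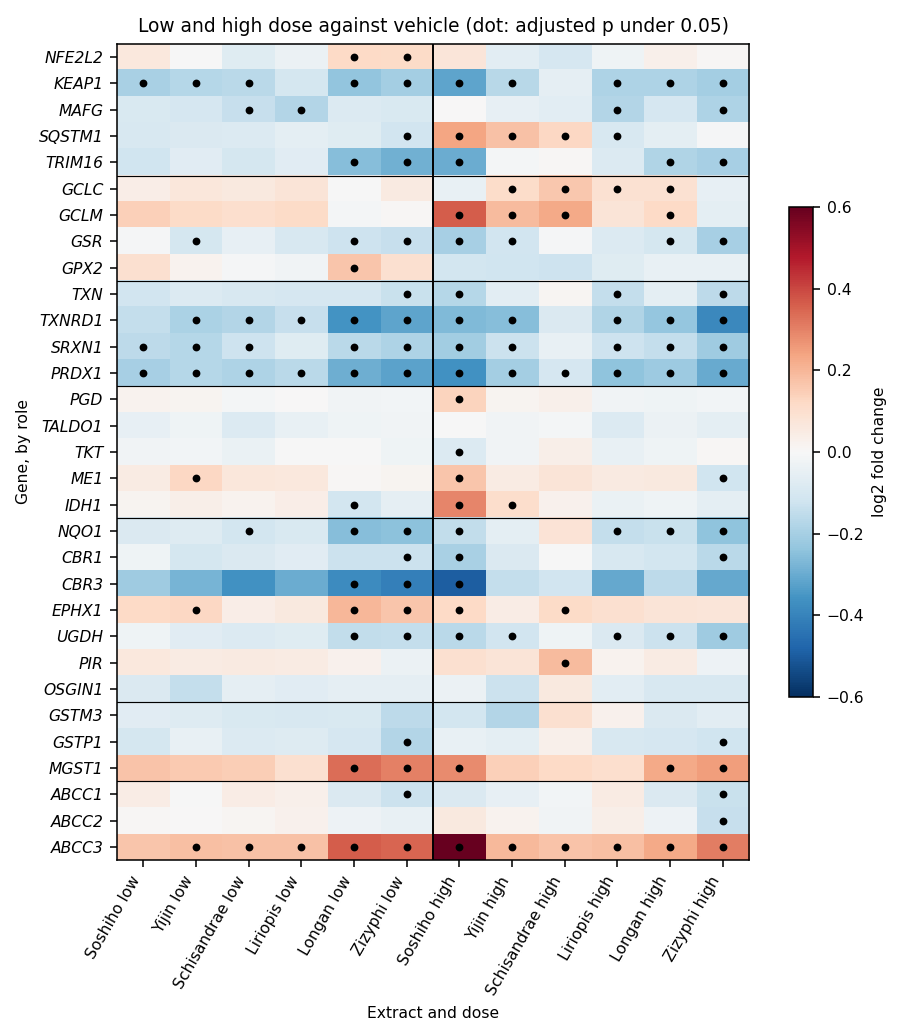
Log2 change against vehicle for the 31 genes (rows, by role) at the low (left) and high dose (right) of 6 extracts; red is higher and blue lower than vehicle, and a dot marks adjusted p under 0.05. The rows of KEAP1, TXNRD1, SRXN1 and PRDX1 are blue and the ABCC3 row is red in every column.

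Polygalae Radix had 1 library per dose, so its values carry no test, and the background below counts genes past 1.5-fold on the log2(CPM + 1) scale among 13882 genes with a mean of at least 1 CPM. At 380 against 15.2 µg/mL, 16 of 31 members were lower past 1.5-fold (21.3% of all genes were) and 3 were higher (12.8%). All 5 pentose phosphate and NADPH enzymes were lower, while the NRF2 gene and 2 of its targets were higher. The transketolase TKT read 1581, 919.8 and 303 CPM at the low, medium and high dose, 5.2-fold lower at the high dose. IDH1 read 210.1, 157 and 49.8 CPM (4.16-fold), NQO1 1209, 819 and 331 CPM (3.64-fold), and TALDO1 196, 153 and 55.7 CPM (3.47-fold). GSTP1 and ABCC3 were each 3.02-fold lower, PIR 2.78-fold and PGD 2.71-fold. These genes lay in dose order, with the medium dose between the others.

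Opposite to them, SRXN1 read 395, 499.9 and 837 CPM at the low, medium and high dose (2.12-fold higher; counting interval 826 to 847 CPM at the high dose, exact Poisson, 95%). OSGIN1, an oxidative-stress growth inhibitor named after its values were seen, read 109.9, 139.9 and 232 CPM (2.1-fold). NFE2L2 read 137, 153 and 210.0 CPM (1.53-fold higher) and lay just past the 1.5-fold limit. MAFG at 109, 122 and 159 CPM (1.45-fold higher) and CBR1 (1.48-fold lower) fell just short of it. KEAP1 read 55.1, 62.2 and 73.3 CPM, GCLC 286, 325 and 364 CPM, and TXNRD1 1569, 1810.0 and 1962 CPM, all in rising order within 1.5-fold. GCLM read 224, 248 and 235 CPM. Of the 31, 8 lay in rising and 16 in falling order of dose, beside 32.5% and 36.4% of all genes. Intervals cover the counting error of 1 library only. They may be too narrow even for that, since reads without molecular identifiers are not independent molecules.

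With CPM by total count in place of TMM, the median over all genes moved from -0.036 to 0.28 (log2), the members' median from -0.68 to -0.34, and the split became 9 higher and 12 lower, beside 30.3% and 12% of all genes under that scaling. GSR changed sign under that scaling, from -0.30 to 0.051. Against the vehicle mean, 17 members were lower and 3 higher at the high dose (22.5% and 14.7% of all genes; 14 and 6 by total count, beside 13.6% and 30.3%), and TKT was 5.39-fold and NQO1 4.48-fold lower. At the medium dose PRDX1, TKT, NQO1 and GSTP1 were lower than vehicle past 1.5-fold (3.8%), and TKT alone was lower than the low dose (1.72-fold; 1.51%). At the low dose 0 members passed 1.5-fold against vehicle, beside 3.2% of all genes. The further lists were counted at high against low with TMM scaling only, where 21.3% of all genes were lower and 12.8% higher. They were not counted by total count. With TMM, 13 of 18 antioxidant enzymes, all 8 glutathione transferases and 10 of 16 pentose phosphate and NADPH genes were lower, with 0, 0 and 1 higher. Of 22 further NRF2 targets 10 were lower, among them ALDH3A1 (816 to 84.7 CPM), and 3 higher: NR0B1 (29.5 to 66.4 CPM) and the ferritin chains FTL (7914 to 13080 CPM) and FTH1. Of 14 partners and rivals 5 were higher, with MAFK from 143 to 311 CPM and BACH1, a repressor of the same elements, from 24.3 to 47.4 CPM. The epithelial marker sum was lower in the same library, at 1120 CPM against 5790 at the low dose (5 of 5 lower), the fibroblast sum was 26.1 against 45 CPM and the leukocyte sum 6.7 against 20 CPM (4 of 8 lower, 2 higher), with PTPRC and CD3E at 0. The neural sum was 89.9 against 121 CPM (4 of 6 lower, 2 higher). The slope of counts on transcript length was 0.127 in the high-dose library, the highest of the libraries kept, and 0.0225 at the low dose. The part of these shifts was not tested.

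Aucklandiae Radix was in the same set and had 1 library per dose, so its values carry no test. Between 370 and 14.8 µg/mL, 2 of 31 members differed past 1.5-fold, near the share of all genes (7.47% either way). SQSTM1 was higher (4.08% of all genes were) and GPX2 lower (3.39%). SQSTM1 read 744, 814 and 1274 CPM at the low, medium and high dose (1.71-fold), the highest SQSTM1 value of the 60 libraries. GPX2 read 266, 219 and 136 CPM (1.95-fold lower). NFE2L2 read 134, 135 and 152 CPM, KEAP1 60.7, 63.7 and 66.5 CPM, MAFG 112, 109 and 109.5 CPM and NQO1 1261, 1273 and 1362 CPM. GCLC read 279.5, 303 and 249.5 CPM, GCLM 225, 231 and 224 CPM, TXNRD1 1510.0, 1631 and 1808 CPM and SRXN1 385, 424 and 377 CPM. Outside the 31, 1 of 22 further NRF2 targets was higher past 1.5-fold, HMOX1, which read 157, 174 and 522 CPM. Of the same 22, 3 were lower: AKR1B10 (2154 to 1011 CPM), AKR1C2 (2007 to 1326 CPM) and UGT1A6 (1.33 to 0.321 CPM). Of 18 further antioxidant enzymes 0 were higher and 2 lower, GPX1 (70.3 to 29.6 CPM) and GLRX (60 to 30.6 CPM). The leukocyte sum was 37.1 CPM at the high and 17.3 CPM at the low dose (5 of 8 higher), with PTPRC and CD3E at 0, and the epithelial sum 4100 against 6170 CPM (3 of 5 lower, 2 higher). The fibroblast sum was 31.7 against 48.3 CPM (3 of 8 lower, 2 higher) with COL1A2, DCN and FAP at 0, and the neural sum 101 against 116 CPM (4 of 6 lower, 2 higher). The part of these sums was not tested. Against vehicle the same 2 genes passed 1.5-fold at the high dose, SQSTM1 1.67-fold higher (5.52% of all genes) and GPX2 1.53-fold lower (4.98%), and 0 at the medium (3.98%) and low dose (4.61%). GPX2 was no longer past 1.5-fold against vehicle with CPM by total count (4.03% of all genes lower). The doses of Aucklandiae Radix and Polygalae Radix differ, so their values stand side by side without a comparison.

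**Figure D5:**
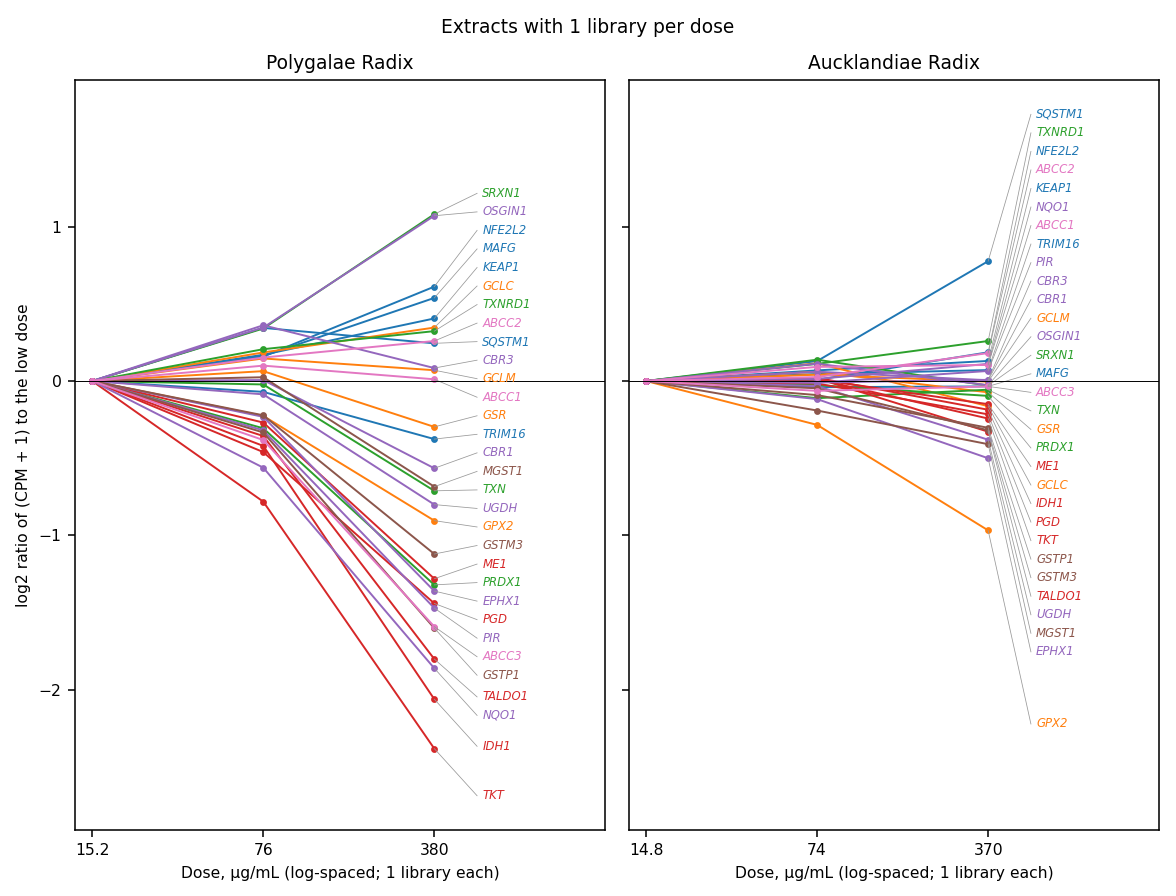
Log2 ratio of CPM + 1 to the low dose for the 31 genes (lines, coloured by role) against dose on a log-spaced axis for the 2 extracts with 1 library per dose. In Polygalae Radix, SRXN1 and OSGIN1 end near 1.08 and 1.07 and TKT ends at -2.38; in Aucklandiae Radix, SQSTM1 ends at 0.78 and GPX2 at -0.97.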

How the data were processed

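RNA was counted per gene in 60 A549 libraries of 25 groups, grouped by the labels. The authors deposited 1 table of expected counts (estimated counts per gene, no scaling); of its values 10.485% were not whole. The submitters' processing notes name the aligner STAR (2.7.3a), the counter RSEM (1.3.3), the trimmer Trim Galore (0.6.5), FastQC (0.11.9) and the build hg38. Annotation release and strand setting: not given in the sources used here. Expected counts were rounded. With edgeR 4.0.16 in R 4.3.3 (TMM, filterByExpr, robust quasi-likelihood F test), 52 libraries were fitted together, 18228 genes were tested in 21 contrasts, and p-values were adjusted by Benjamini-Hochberg over all genes within a contrast. Every adjusted p comes from this test. CPM are TMM-scaled, except those of cell type markers, their sums and CDKN2A, which are by total count. Errors are SE beside log2 changes and SD beside levels. Extracts with 1 library per dose were described by log2(CPM + 1). Transcript lengths come from GENCODE 29, which held 57055 of the 60675 identifiers. Promoters come from RefSeq. The members, lists and the choice of 52 libraries were made with earlier results of these data known. Members given in every library or dose were NFE2L2, KEAP1, MAFG, NQO1, GCLC, GCLM, TXNRD1 and SRXN1; others were named where called, by size. The script was tested on simulated data. Alternatives were all 54 libraries, DESeq2 1.42.0, its size factors, no filter, a replicate block, leave-one-out and, without a test, another pseudocount and scaling. The lowest chi-square per degree of freedom between replicates was 1.863, so none were counted as 1 sample.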

Additional observations from a re-analysis of the deposited data

Results flagged for a closer look

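The change from low to high dose differed between the 2 extracts of a set, by edgeR's interaction test, for 8 members. Between Soshiho-tang and Yijin-tang the differences (log2, Soshiho-tang minus Yijin-tang) were 0.422 for ABCC3, 0.203 for IDH1, 0.193 for ME1, -0.175 for GSR and -0.232 for TRIM16. Between Schisandrae Fructus and Liriopis seu Ophiopogonis Tuber they were 0.248 for SQSTM1 and 0.245 for NQO1, and between Longan Arillus and Zizyphi Semen 0.201 for GCLC. None of the 8 was called with all 54 libraries, and 2 of the 8 held without every single library in turn (ABCC3 and SQSTM1).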

How the results depend on the processing

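The choice of libraries changed the most. With all 54 replicated libraries, high against low called 2 members in Soshiho-tang, 0 in Schisandrae Fructus, 7 in Longan Arillus and 0 in Zizyphi Semen; low against vehicle called 0 in Soshiho-tang, Yijin-tang, Schisandrae Fructus and Liriopis and 4 in Zizyphi Semen; high against vehicle called 7, 1, 1, 0, 2 and 5 (Soshiho-tang, Yijin-tang, Schisandrae, Liriopis, Longan, Zizyphi); and each of the 3 differences between extracts called 0. The raised common dispersion (0.0173) enters every test of that fit. Of 159 calls, 33 kept their call, 122 lost it and 4 changed sign, all in Longan low against vehicle: PRDX1 0.286, IDH1 0.169, NQO1 0.266 and CBR3 0.274. DESeq2's Wald test gave 3 in Longan high against low, 8 in Soshiho-tang low against vehicle, and 4 and 3 in the differences of Schisandrae and Longan. Without a filter, counts were 1 in Longan and 0 in Zizyphi high against low, 6 in Soshiho-tang low and 4 in Schisandrae high against vehicle, and 1 and 0 in the differences of Soshiho-tang and Longan; the cause was not tested. DESeq2's size factors lost 2 of 159 calls, without any change of sign.

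Replicate numbers were not taken to pair the libraries, since the correlation of same-numbered deviations was over 0.1 in 2 of 23, 12 of 45 and 23 of 40 pairs in the sets of the decoctions, of Schisandrae and of Longan, not in every one. In the Longan set its median was 0.136 (-0.253 to 0.802), against -0.0587 for different numbers. A replicate block gave 2 in the Longan difference; within sets the replicate block gave 5 in Schisandrae and 2 in Longan high against low and 2 in the Longan difference. Every call was kept under the block. Leaving out 1 library in turn gave, high against low, 5 to 10 in Soshiho-tang, 1 to 1 in Yijin-tang, 2 to 4 in Schisandrae, 0 to 0 in Liriopis and Longan and 0 to 2 in Zizyphi; low against vehicle, 0 to 5, 3 to 6, 2 to 6, 1 to 4, 10 to 14 and 15 to 17; high against vehicle, 16 to 20, 7 to 9, 4 to 7, 2 to 10, 10 to 12 and 14 to 15, each in the order Soshiho-tang, Yijin-tang, Schisandrae, Liriopis, Longan, Zizyphi; and 2 to 5, 1 to 2 and 0 to 2 in the differences. CPM by total count gave 1 in Aucklandiae high against vehicle. Where 1 library is left in an arm it is assumed to vary like the other groups.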
